A study of Mus musculus with 6 samples.

Results

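The 10 genes described here are the sugar, peptide, amino acid and short-chain fatty acid carriers of the colonocyte, together with a receptor for short-chain fatty acids. They are listed by name as nutrient carriers of colonocytes, with no measured value in the rule, although earlier results of these data were known when they were chosen. All 10 were among the 24517 genes of the count tables, and 9 of them were among the 16347 genes with enough reads to be tested. Slc2a2, which encodes the glucose and fructose carrier GLUT2 of liver and small intestine, had at most 1 count in any library and was not tested. Colon was sequenced in 6 libraries, 3 labelled NSD2fl/fl and 3 labelled NSD2∆IE, written Nsd2fl/fl and Nsd2ΔIE here.

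The Nsd2fl/fl mice carried a floxed Nsd2 gene and served as controls. Nsd2 encodes an enzyme that dimethylates lysine 36 of histone H3. The Nsd2ΔIE mice carried the same alleles with Villin-Cre, which deletes the floxed gene in the intestinal epithelium, so muscle, stroma and blood cells of the same tissue keep it. Both groups were fed HFCD, a diet rich in fat and cholesterol, for 16 weeks according to the labels, whereas the study's methods give a longer time. Per those methods the mice were of C57BL/6J background and entered the diet as young adults. No group on a normal diet was part of these libraries.

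Luminal nutrients cross the colonic epithelium through membrane carriers of the solute carrier (SLC) families. Sodium-coupled carriers such as SGLT1 concentrate their substrate against its gradient, facilitative carriers such as GLUT1 equilibrate it, and proton-coupled carriers such as PEPT1 and MCT1 use the acidic layer at the cell surface. Butyrate, acetate and propionate are made by the bacteria of the lumen from fibre, and butyrate is the main fuel of colonocytes. Cells sense these short-chain fatty acids through G protein-coupled receptors.

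Library totals ranged from 38041832 to 38604680 counts. A count of 0 allows up to 3 counts, or at most 0.0848 CPM (counts relative to a TMM-adjusted library size), which covers counting error only. Nsd2, the targeted gene, had 1840 to 2455 counts in the control libraries and 914 to 1139 counts in the Nsd2ΔIE libraries (log2 fold change -1.23, SE 0.159, edgeR adjusted p = 0.302, DESeq2 adjusted p = 3.88e-07). Of the 16347 genes tested, 455 had an adjusted p under 0.05 with DESeq2 and 5 with edgeR. The libraries also differed in sex-linked transcripts. Xist, the RNA of the inactive X chromosome, had 0 to 4 counts in Nsd2fl/fl and 21217 to 24234 counts in Nsd2ΔIE, and Ddx3y, Eif2s3y, Kdm5d and Uty of the Y chromosome together had 5058 to 6110 counts in Nsd2fl/fl and at most 1 count in Nsd2ΔIE. The study's methods describe male littermates. Genotype and this difference fall on the same libraries, so the 2 cannot be told apart for any gene below, among them the X-linked Slc6a14.

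Slc15a1, Slc5a8 and Slc16a1, picked after their similar order over the libraries was seen, and Slc2a1, the single gene past the study's threshold, are shown by the bases in front of their start sites, taken from RefSeq promoters of assembly GRCm38.p6, in which all 10 genes were found. The stretches are chr14:121505255-121505504 on the minus strand for Slc15a1 (62% G and C), chr10:88885742-88885991 on the plus strand for Slc5a8 (58.8%), chr3:104638414-104638663 on the plus strand for Slc16a1 (76.4%) and chr4:119108495-119108710 on the plus strand for Slc2a1, which ends where the GENCODE gene begins. They read 5′ to 3′, and capitals mark matches, on either strand, to a GC box (GGGCGG) or an E-box (CACGTG).
Slc15a1: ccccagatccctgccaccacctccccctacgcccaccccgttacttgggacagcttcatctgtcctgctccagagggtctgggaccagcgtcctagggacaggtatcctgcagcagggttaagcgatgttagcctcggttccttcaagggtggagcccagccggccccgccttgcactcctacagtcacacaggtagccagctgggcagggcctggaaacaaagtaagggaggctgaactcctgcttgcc
Slc5a8: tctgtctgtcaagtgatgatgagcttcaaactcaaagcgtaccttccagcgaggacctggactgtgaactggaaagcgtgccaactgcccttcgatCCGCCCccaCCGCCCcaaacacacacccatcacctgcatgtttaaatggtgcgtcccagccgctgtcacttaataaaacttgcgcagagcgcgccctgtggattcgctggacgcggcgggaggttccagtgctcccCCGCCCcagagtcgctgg
Slc16a1: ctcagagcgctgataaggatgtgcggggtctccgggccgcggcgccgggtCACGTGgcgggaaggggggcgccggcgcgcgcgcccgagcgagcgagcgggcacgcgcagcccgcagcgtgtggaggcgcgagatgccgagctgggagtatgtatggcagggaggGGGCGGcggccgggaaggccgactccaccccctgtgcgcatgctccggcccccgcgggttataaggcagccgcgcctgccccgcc
Slc2a1: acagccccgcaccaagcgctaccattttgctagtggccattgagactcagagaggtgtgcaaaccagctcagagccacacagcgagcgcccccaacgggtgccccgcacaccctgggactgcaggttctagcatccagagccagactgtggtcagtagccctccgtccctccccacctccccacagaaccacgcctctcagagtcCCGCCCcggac
Slc5a8 held 3 GC boxes in its 250 bases, Slc16a1 held 1 GC box and 1 E-box, Slc2a1 held 2 GC boxes of which the one nearer the start site lies beyond the bases printed, and Slc15a1 held no match. Among all 32851 RefSeq promoters cut to the same 250 bases, 32.7% held a GC box and 6.02% an E-box, and the median share of G and C was 52.4%. A CDX motif (TTTATNG, in 9.81% of all promoters) and an HNF4 motif (CAAAGTCCA, 0.384%) were not matched in these windows of any of the 10 genes. These are matches of letters in one window and no measure of binding.

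By level per transcript length, given as FPKM (fragments per kilobase of transcript, scaled to the library total), the amino acid carrier Slc6a14 stood first in all 6 libraries, with a mean of 189 FPKM and 40.0% to 55.4% of the sum over the 10 genes. Slc16a1 followed at 56.7 FPKM, then Slc2a1 at 45.9, Slc5a1 at 41.2 and Slc5a8 at 37.3 FPKM. Slc16a1 exceeded Slc2a1 in 5 of 6 libraries and Slc2a1 exceeded Slc5a1 in 5 of 6, whereas Slc5a1 exceeded Slc5a8 in 3 of 6, so these neighbours changed places between libraries. Slc15a1, at 16.6 FPKM, stood above Ffar2, at 8.23 FPKM, in 3 of 6 libraries. Slc7a9 at 5.16 FPKM and Slc6a19 at 0.60 FPKM came next and kept that order in every library, and Slc2a2 came last at 0.0068 FPKM.

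**Figure D1:**
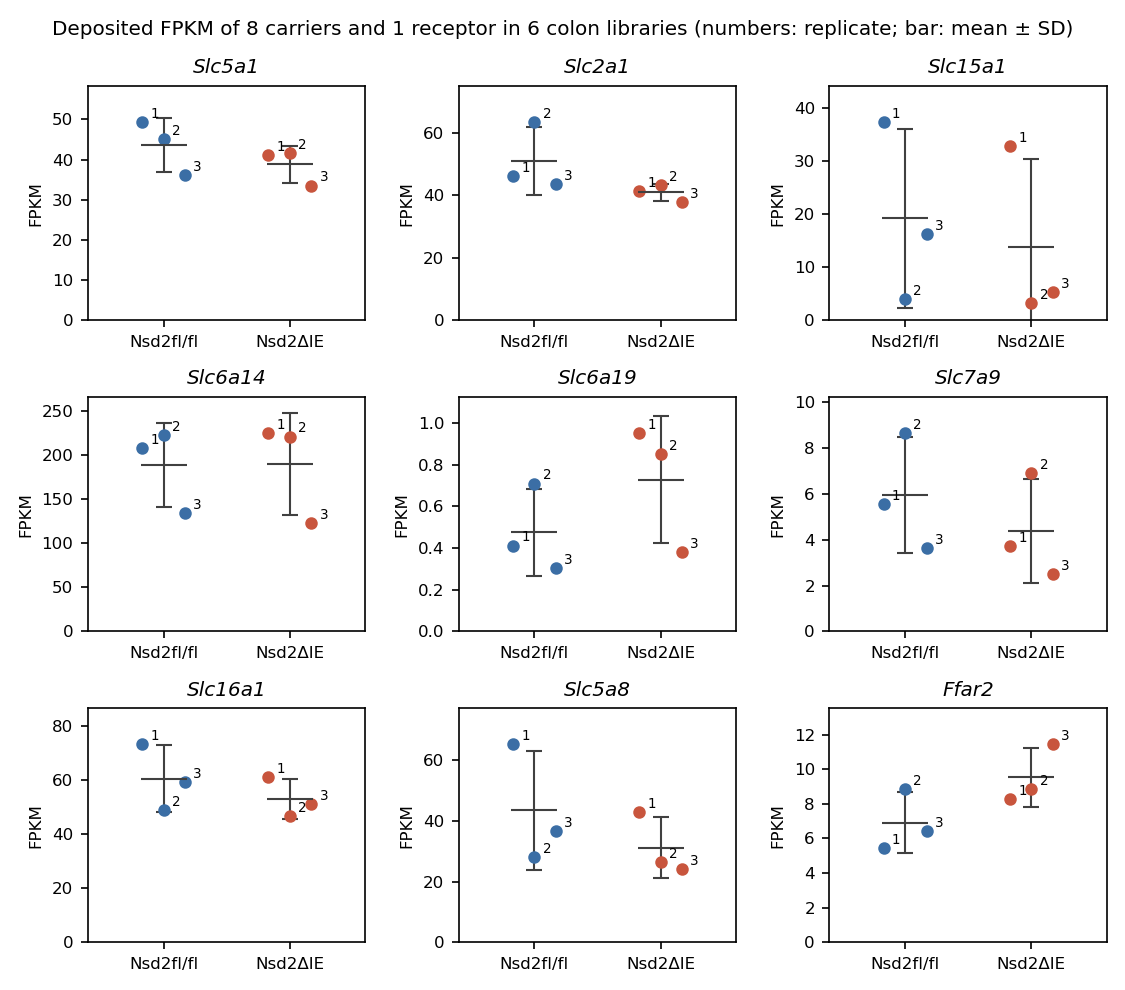
Deposited FPKM (vertical axis of each panel, from 0) of the 9 tested genes, with 1 numbered point per library, Nsd2fl/fl in blue and Nsd2ΔIE in red, and a bar for the group mean ± SD (the lower end for Slc15a1 in Nsd2ΔIE falls under 0 and is not drawn). The groups overlap in every panel except that of Slc2a1, where the highest Nsd2ΔIE point, 43.3 FPKM, is just under the lowest Nsd2fl/fl point, 43.5 FPKM, and Slc15a1 runs from 3.32 to 37.5 FPKM.

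Among the sugar carriers, Slc5a1 encodes SGLT1, the sodium-glucose cotransporter of the brush border (chromosome 5, 33104219 to 33162870, plus strand, 15 exons, positions here and below from GENCODE M21, GRCm38). It had 49.4, 45.1 and 36.2 FPKM in Nsd2fl/fl and 41.2, 41.7 and 33.5 FPKM in Nsd2ΔIE. The third replicate was lowest in both groups, and the groups overlapped. On TMM-scaled counts the means were 179 ± 23.0 CPM and 147 ± 21.2 CPM (SD, n = 3 each), a log2 fold change of -0.29 (SE 0.159, 95% interval -0.67 to 0.09) with an edgeR adjusted p of 0.566.

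Slc2a1 encodes GLUT1, the facilitative glucose carrier found in most dividing cells (chromosome 4, 119108711 to 119137983, plus strand, 10 exons). The Nsd2fl/fl libraries had 46.0, 63.5 and 43.5 FPKM and the Nsd2ΔIE libraries 41.4, 43.3 and 37.9 FPKM. All Nsd2ΔIE values lay under all Nsd2fl/fl values, and the second Nsd2fl/fl library stood above the other 5. In CPM the level was 144 ± 35.2 in Nsd2fl/fl and 105 ± 9.85 in Nsd2ΔIE (SD, n = 3 each). The log2 fold change was -0.45 (SE 0.187, 95% interval -0.89 to -0.0062), with an unadjusted edgeR p of 0.0476 and an adjusted p of 0.441.

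Slc2a1 was thus the 1 gene of the 9 past the study's threshold, which asks for an unadjusted p under 0.05 and a log2 fold change beyond 0.322 in size, and which 2.21% of all genes tested passed in the lower and 8.05% in the higher direction. Among all genes tested, 1763 (10.8%) had a p at least as small. Without the second Nsd2fl/fl library the log2 fold change was -0.23 (unadjusted p = 0.113, edgeR). Without Nsd2ΔIE replicate 1, 2 or 3 it was -0.46, -0.51 or -0.38, with unadjusted edgeR p of 0.0845, 0.0684 and 0.145. With the mean level of 9 epithelial markers as a covariate it was -0.19 (unadjusted p = 0.223, edgeR). Taken as a percentage of the summed FPKM of those markers, Slc2a1 was at 0.836, 0.715 and 0.680 in the controls, and the Nsd2ΔIE values of 0.651, 0.728 and 0.638 overlapped them. In bulk tissue, fewer cells of a type and less RNA per cell cannot be told apart. A gene on the opposite strand, Gm12868, overlaps exons of Slc2a1 in the annotation, and since the use of strand in counting is not given in the sources used here, reads of the pair cannot be told apart either.

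**Figure D2:**
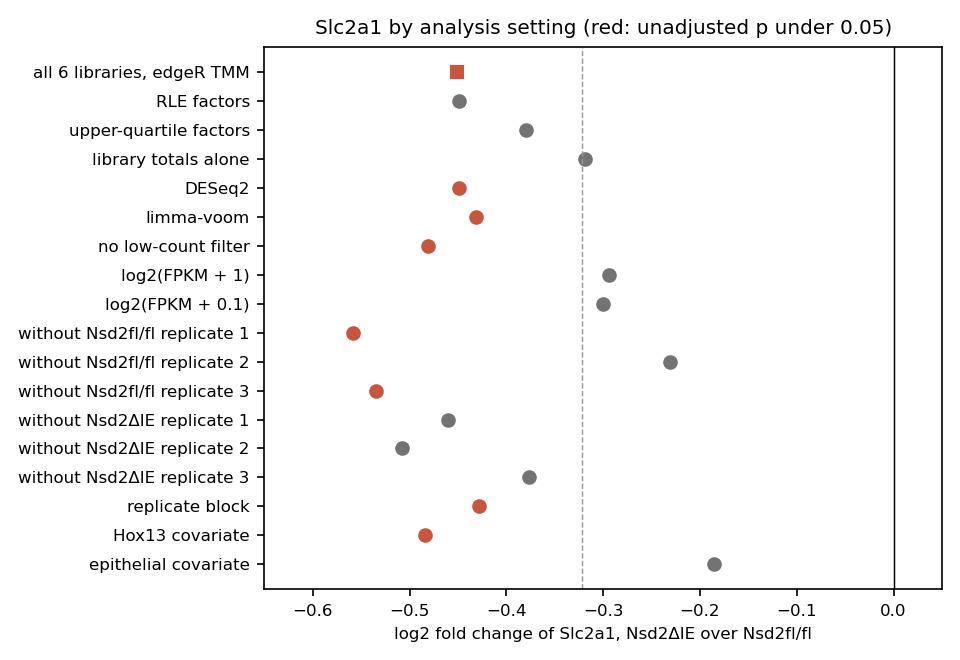
Log2 fold change of Slc2a1, Nsd2ΔIE over Nsd2fl/fl (horizontal axis), under the edgeR fit of all 6 libraries (square) and 17 alternatives (circles), red where the unadjusted p was under 0.05, with a dashed line at the study's fold threshold (-0.322 on this scale). All values are below 0, from -0.56 to -0.19, and 7 of the 17 alternatives had an unadjusted p under 0.05.

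For peptides, Slc15a1 encodes PEPT1, the proton-coupled carrier of di- and tripeptides (chromosome 14, 121459621 to 121505252, minus strand, 23 exons). It had 37.5, 4.01 and 16.2 FPKM in Nsd2fl/fl and 32.9, 3.32 and 5.42 FPKM in Nsd2ΔIE. The highest library had 11.3 times the FPKM of the lowest, the widest range among the 9 genes, and each group held high and low libraries. The log2 fold change was -0.55 (SE 1.02, 95% interval -2.97 to 1.88, edgeR adjusted p = 0.862). It was 0.30 without the first Nsd2fl/fl library and -2.25 without the first Nsd2ΔIE library.

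Of the amino acid carriers, Slc6a14 encodes ATB0,+, a sodium- and chloride-coupled carrier of neutral and cationic amino acids (chromosome X, 21714896 to 21742355, plus strand, 14 exons). Its values were 208, 223 and 135 FPKM in Nsd2fl/fl and 226, 221 and 123 FPKM in Nsd2ΔIE. In both groups replicates 1 and 2 were close to each other and replicate 3 was lowest. The log2 fold change was -0.11 (SE 0.309, 95% interval -0.84 to 0.63, edgeR adjusted p = 0.916), and with library totals alone it was 0.0096.

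Slc6a19 encodes B0AT1, the sodium-coupled carrier of neutral amino acids that dominates in the small intestine (chromosome 13, 73679745 to 73704865, minus strand, 12 exons). It had 64, 111 and 47 counts in Nsd2fl/fl and 150, 134 and 60 counts in Nsd2ΔIE, the lowest level of the genes tested. Its log2 fold change was 0.49 (SE 0.48, edgeR adjusted p = 0.735), and the groups overlapped.

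Slc7a9 encodes the light chain of the exchanger of cystine and dibasic amino acids (chromosome 7, 35448796 to 35466036, plus strand, 13 exons). It had 5.54, 8.65 and 3.62 FPKM in Nsd2fl/fl and 3.71, 6.89 and 2.51 FPKM in Nsd2ΔIE. Replicate 2 was highest and replicate 3 lowest in both groups. The log2 fold change was -0.56 (SE 0.464, 95% interval -1.67 to 0.54, edgeR adjusted p = 0.691).

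The monocarboxylate carriers take up butyrate. Slc16a1 encodes MCT1, the proton-coupled carrier of lactate, butyrate and ketone bodies (chromosome 3, 104638668 to 104658462, plus strand, 5 exons). It had 73.3, 48.8 and 59.2 FPKM in Nsd2fl/fl and 61.1, 46.6 and 51.0 FPKM in Nsd2ΔIE. The first library was highest and the second lowest in each group, and the groups overlapped. Means were 278 ± 43.3 CPM and 225 ± 33.8 CPM (SD, n = 3 each), a log2 fold change of -0.31 (SE 0.172, 95% interval -0.72 to 0.10, edgeR adjusted p = 0.566).

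Slc5a8 encodes SMCT1, the sodium-coupled monocarboxylate carrier of the colonic brush border (chromosome 10, 88885992 to 88929515, plus strand, 15 exons). Its levels were 65.3, 28.1 and 36.7 FPKM in Nsd2fl/fl and 42.8, 26.5 and 24.2 FPKM in Nsd2ΔIE. The first library was highest in each group, and the 2 highest values of all came from different genotypes. With 238 ± 94.3 CPM against 160 ± 54.5 CPM (SD, n = 3 each), the log2 fold change was -0.58 (SE 0.341, 95% interval -1.39 to 0.23, edgeR adjusted p = 0.585). Leaving out each library in turn gave -0.89 to -0.22, the latter without the first Nsd2fl/fl library. It was past the study's threshold without the first Nsd2ΔIE library (-0.89, unadjusted p = 0.042, edgeR), without the second Nsd2fl/fl library (-0.80, unadjusted p = 0.0488, edgeR) and with the epithelial covariate (-0.85, unadjusted p = 0.0399, edgeR). Slc16a1 stood above Slc5a8 in every library, at 1.12 to 2.11 times its FPKM.

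Ffar2 encodes GPR43, a receptor for acetate, propionate and butyrate on epithelial, endocrine and immune cells (chromosome 7, 30818348 to 30823775, minus strand, 3 exons). It had 5.47, 8.86 and 6.44 FPKM in Nsd2fl/fl and 8.27, 8.87 and 11.5 FPKM in Nsd2ΔIE. The second Nsd2fl/fl library stood among the Nsd2ΔIE values, and the other 2 controls under them. Its log2 fold change was 0.32 (SE 0.229, 95% interval -0.22 to 0.87, edgeR adjusted p = 0.650), one of 2 above 0 among the 9 genes. Without the second Nsd2fl/fl library it was 0.57 (unadjusted p = 0.0194, adjusted p = 0.327, edgeR), without the first it was 0.14 (unadjusted p = 0.511, edgeR), and without the third Nsd2ΔIE library 0.19 (unadjusted p = 0.486, edgeR). Enteroendocrine markers summed to 382.5 to 449 FPKM in Nsd2fl/fl and 319 to 431 FPKM in Nsd2ΔIE, and of the 6 neutrophil genes Ly6g had 0.913 to 186 FPKM, Retnlg 0.908 to 3.41, Csf3r 0.454 to 0.893, and S100a8, S100a9 and Cxcr2 at most 0.529 FPKM. Their part in the level of Ffar2 was not tested.

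**Figure D3:**
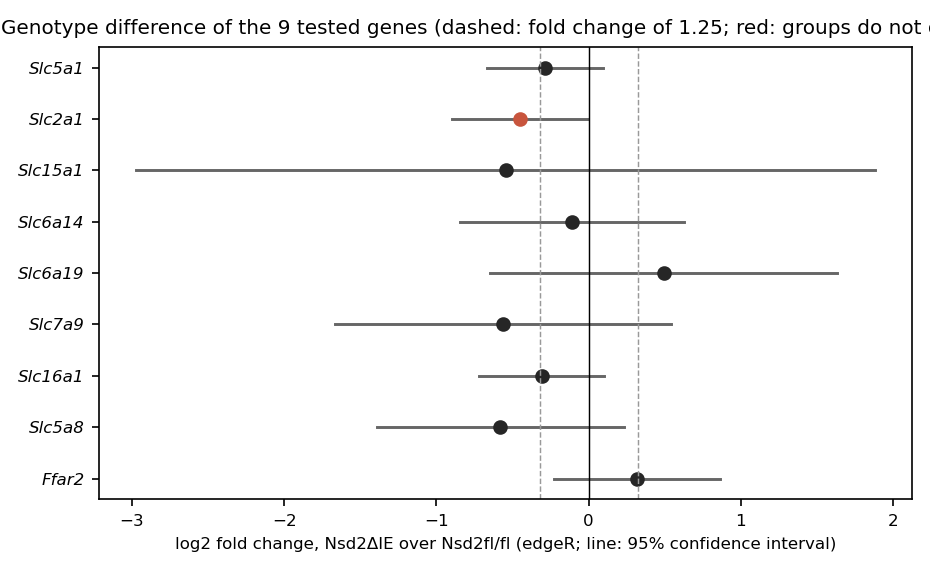
Log2 fold change of each tested gene, Nsd2ΔIE over Nsd2fl/fl (horizontal axis; point, edgeR estimate; line, 95% confidence interval), with dashed lines at the study's fold threshold in each direction and red for the gene whose groups do not overlap. The interval of Slc2a1 ends at -0.0062 and the other 8 cross 0, that of Slc15a1 from -2.97 to 1.88.

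As a group, 7 of the 9 tested genes had a log2 fold change below 0 and 2 above 0, with a median of -0.31. Of all 16347 genes tested, 9202 were below 0 and 7145 above 0, with a median of -0.04. None of the 9 had an edgeR adjusted p under 0.05. Of all genes tested 0.0306% had one, namely Xist and the 4 genes of the Y chromosome given above. At an unadjusted p under 0.05 the count was 1, the same number with edgeR, DESeq2 and limma-voom. With edgeR, 1816 of the 16347 genes tested were under that p. Slc2a1 was also the single gene with all Nsd2ΔIE values below all Nsd2fl/fl values in CPM, a pattern shown by 7.28% of all genes, and no gene of the 9 had the opposite pattern, shown by 11.4%. A difference that missed the threshold does not show equal levels, since the 95% intervals reached a log2 fold change of -1.39 for Slc5a8 and 0.87 for Ffar2.

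Marker genes of the tissue's cell types were read beside these values. All 9 general epithelial markers had log2 fold changes below 0 (median -0.32), as had 9202 of the 16347 genes tested. Of the 9 markers, 1 passed the study's threshold. Their summed FPKM was 5505 to 8875 in Nsd2fl/fl and 5936 to 6359 in Nsd2ΔIE, with the highest value in the second Nsd2fl/fl library. All 6 smooth muscle markers had values above 0 (median 1.26), 5 of them past the threshold, and summed to 529 to 1660 FPKM in Nsd2fl/fl and 2118 to 4960 FPKM in Nsd2ΔIE, without overlap. Of 4 tested adipocyte markers all were above 0, and the 5 listed summed to 1.05 to 9.84 FPKM against 10.9 to 38.3 FPKM. The 9.84 FPKM, of the second Nsd2fl/fl library, were nearly all Cidec (9.79 FPKM), with Adipoq and Plin1 at 0. Endothelial genes summed to 27.9 to 39.4 FPKM and 33.6 to 39.5 FPKM, and erythroid genes to 28.2 to 55.5 FPKM and 37.3 to 79.9 FPKM. Neutrophil genes summed to 34.4 to 190 FPKM and 5.47 to 125 FPKM, and the genes of liver and pancreas to 2.42 to 38.2 FPKM and 3.30 to 33.2 FPKM. Single genes made up much of these sums. Ly6g gave 186 of the 190 FPKM of the highest neutrophil sum. Ttr was the largest term for liver and pancreas (1.23 to 36.9 FPKM), with Alb at most 1.31 FPKM and Prss2 at most 0.0954 FPKM. The part of these differences in the levels of the carriers was not tested beyond the covariate fits. Under the epithelial covariate 6 of the 9 log2 fold changes remained below 0, with a median of -0.19.

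Position along the colon is marked by the Hox genes of the thirteenth paralogue group, which are used in the hindmost gut. Hoxb13 had 270, 0.477 and 233 FPKM in Nsd2fl/fl and 233, 3.73 and 20.6 FPKM in Nsd2ΔIE. Hoxd13 had 9.58, 0 and 14.1 FPKM against 4.59, 0 and 0.0708 FPKM, and Hoxa13 had 13.8, 2.63 and 10.2 FPKM against 14.3, 4.42 and 10.7 FPKM. Replicates 1 and 3 of Nsd2fl/fl and replicate 1 of Nsd2ΔIE were thus high in Hoxb13 and the other 3 low, while Hoxa13 in the third Nsd2ΔIE library was as high as in the third Nsd2fl/fl library. In the same 3 libraries Slc15a1 had 16.2 to 37.5 FPKM, compared with 3.32 to 5.42 FPKM in the others. Slc5a8 had 36.7 to 65.3 FPKM compared with 24.2 to 28.1 FPKM, and Slc16a1 59.2 to 73.3 FPKM compared with 46.6 to 51.0 FPKM. These orders are a description of 6 libraries that were not chosen for position, and the 3 carriers came from the same libraries, so no test was made. How many of all genes tested separate the same 3 libraries from the others was not counted. The order is therefore not shown to be particular to these carriers.

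Ffar2 had the reverse order, with 5.47 to 8.27 FPKM in the 3 libraries high in Hoxb13 and 8.86 to 11.5 FPKM in the others, and its log2 fold change with the Hox covariate was 0.27 (unadjusted p = 0.147, edgeR). The carriers Slc5a1, Slc2a1, Slc6a14, Slc6a19 and Slc7a9 did not separate in this way. With the mean log2 CPM of the 3 Hox genes as a covariate, the log2 fold change was -0.31 for Slc15a1, -0.45 for Slc5a8 and -0.25 for Slc16a1 (edgeR adjusted p of 0.730, 0.355 and 0.336). Slc2a1 stood at -0.48 in that fit (unadjusted p = 0.00854, adjusted p = 0.169, edgeR). The 6 colonocyte markers summed to 2518 to 10127 FPKM in Nsd2fl/fl and 3602 to 9231 FPKM in Nsd2ΔIE, with the highest sum of each group in its second library. The markers did not share this order. Car1 (4955 and 5662 FPKM in the second Nsd2fl/fl and Nsd2ΔIE libraries), Guca2a and Ceacam1 were highest of each group there. Aqp8 (157 and 133 FPKM) and Slc20a1 (10.4 and 14.7 FPKM) were lowest of each group there, and Car4 was neither. Aqp8 and Slc20a1 also separated the 3 libraries high in Hoxb13, in the order of Slc15a1. Aqp8 had 352 to 432 FPKM in them, compared with 133 to 192 FPKM in the others. Slc20a1 had 28.9 to 90.2 FPKM, compared with 10.4 to 20.2 FPKM. Car1, Guca2a and Ceacam1 had the reverse order. The 10 small intestinal enterocyte markers summed to 147 to 1018 FPKM and 317 to 976 FPKM, again highest in the second library of each group. The largest term was Fabp2, a fatty acid-binding protein, at 110.2 to 944 FPKM. Mgam had 22.4 to 28.3 FPKM, Apob 6.93 to 20.4, Alpi 0.506 to 20.0, Enpep up to 11.7, Anpep 3.85 to 6.87 and Sis 0.0088 to 8.10 FPKM, and Apoa1, Apoa4 and Lct were at most 0.787, 0.140 and 0.0169 FPKM.

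**Figure D4:**
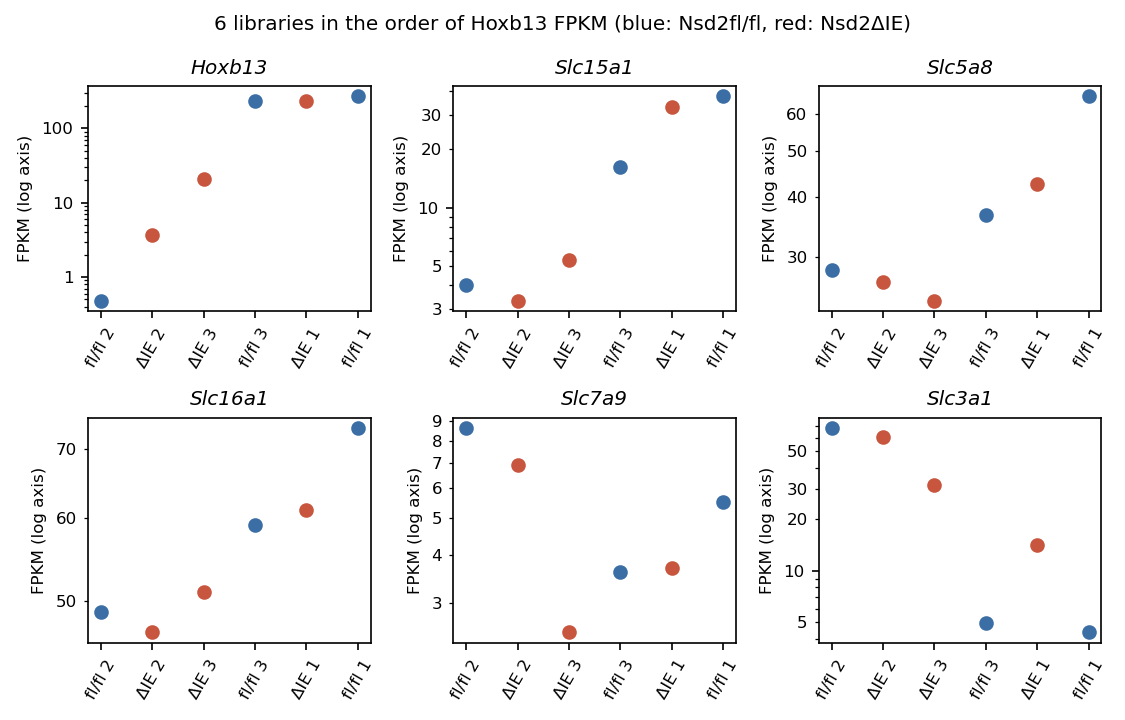
FPKM (log axes) of Hoxb13, 4 carriers and the Slc7a9 partner Slc3a1 in the 6 libraries, ordered from left to right by Hoxb13, Nsd2fl/fl in blue and Nsd2ΔIE in red. Slc15a1, Slc5a8 and Slc16a1 are higher in the 3 libraries on the right, Slc3a1 is higher in the 3 on the left (31.8 to 68.6 FPKM, compared with 4.37 to 14.2 FPKM), and Slc7a9 follows neither order.

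Carriers of these families need partner proteins. Slc3a1 encodes rBAT, the heavy chain that brings the Slc7a9 light chain to the membrane. It had 4.37, 68.6 and 4.98 FPKM in Nsd2fl/fl and 14.2, 60.8 and 31.8 FPKM in Nsd2ΔIE. It was high in the 3 libraries low in Hoxb13. The ratio of Slc3a1 to Slc7a9 FPKM ran from 0.788 in the first Nsd2fl/fl library to 12.7 in the third Nsd2ΔIE library. The log2 fold change of Slc3a1 was 0.29 (SE 1.12, edgeR adjusted p = 0.937), and 2.83 without the second Nsd2fl/fl library (unadjusted p = 0.00306, adjusted p = 0.325, edgeR).

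Bsg encodes basigin, the chaperone of MCT1, and had 371 to 468 FPKM in Nsd2fl/fl and 370 to 442 FPKM in Nsd2ΔIE, above Slc16a1 in every library. Its log2 fold change was -0.10 (SE 0.178, edgeR adjusted p = 0.851), and it was 0.031 with library totals alone. Emb, a related partner of monocarboxylate carriers, had 1.95 to 2.66 FPKM and 2.83 to 3.66 FPKM (log2 fold change 0.30, edgeR adjusted p = 0.655).

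Slc9a3 encodes NHE3, the sodium-proton exchanger whose acid the peptide and MCT carriers use. It had 32.4, 56.0 and 44.5 FPKM in Nsd2fl/fl and 61.4, 69.9 and 76.0 FPKM in Nsd2ΔIE. In FPKM the groups did not overlap, and in TMM-scaled CPM they did. Its log2 fold change was 0.50 (SE 0.238, 95% interval -0.07 to 1.07, edgeR adjusted p = 0.500). Cltrn, the kidney partner of B0AT1, had at most 2 counts, Pdzk1, a scaffold of the brush border, had 0 to 19 counts, and neither was tested. No partner gene passed the study's threshold in either direction among 4 tested in this fit. Slc9a3 passed it, in the higher direction, in 10 of 17 alternatives, among them DESeq2 (0.50, unadjusted p = 0.0487), limma-voom (0.60, unadjusted p = 0.0198) and the Hox covariate (0.45, unadjusted p = 0.0372, edgeR), with adjusted p of 0.253 or more in all 17. Slc3a1 passed it in 3 of 17 alternatives, also in the higher direction.

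The remaining carriers of sugars, 12 tested of 17, had 2 genes past the study's threshold in the higher direction and none in the lower, with a median log2 fold change of 0.26. Both were chosen after their values were seen. Slc2a4, encoding the insulin-responsive GLUT4 of muscle and fat, had 3.68, 2.15 and 3.28 FPKM in Nsd2fl/fl and 4.41, 9.38 and 10.1 FPKM in Nsd2ΔIE. The log2 fold change of Slc2a4 was 1.27 (SE 0.335, edgeR adjusted p = 0.309, DESeq2 adjusted p = 0.0175). Slc2a3, encoding GLUT3, had 0.525 to 1.06 FPKM and 1.62 to 1.86 FPKM (log2 fold change 1.06, SE 0.25, edgeR adjusted p = 0.302, DESeq2 adjusted p = 0.00974). In the same libraries the smooth muscle and adipocyte sums given above were higher, and their part in these 2 differences was not tested. By level, Slc50a1, encoding the sugar carrier SWEET1, led the list with 47.9 to 65.9 FPKM (log2 fold change 0.02), ahead of Slc2a4 and Slc2a10 (3.34 to 6.12 FPKM, 0.15).

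Peptide and amino acid carriers outside the 10 genes, 22 tested of 24, had 1 gene past the threshold in the higher direction and none in the lower, with a median of -0.11. That gene, Slc38a4, an amino acid carrier known from liver and muscle, had 9, 18 and 6 counts in Nsd2fl/fl and 28, 61 and 53 counts in Nsd2ΔIE (log2 fold change 1.94, SE 0.54, edgeR adjusted p = 0.312), and was chosen after its values were seen. The most abundant were Slc1a5, the glutamine carrier ASCT2, with 56.5 to 85.2 FPKM (0.04), Slc38a2, the stress-responsive carrier SNAT2, with 31.6 to 39.1 FPKM (-0.26), and Slc6a6, the taurine carrier, with 18.0 to 34.9 FPKM (0.31). None of these 3 passed the threshold.

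Of 11 tested monocarboxylate, vitamin and anion carriers, 1 was higher and 2 lower by the study's threshold, with a median of 0.08. Slc16a3 encodes MCT4, which exports lactate from glycolytic cells. It had 2.68, 2.89 and 2.86 FPKM in Nsd2fl/fl and 2.46, 1.05 and 1.45 FPKM in Nsd2ΔIE, a log2 fold change of -0.89 (SE 0.32, edgeR adjusted p = 0.386). Slc16a6 had 433 to 723 counts and 381 to 413 counts (-0.60, edgeR adjusted p = 0.420), and Slc16a7, encoding MCT2, 0.352 to 0.539 FPKM and 0.564 to 1.14 FPKM (1.00, edgeR adjusted p = 0.326). These 3 genes were chosen after their values were seen. Slc26a3, the chloride-bicarbonate exchanger of the colonic surface, was the most abundant at 84.1 to 334 FPKM (0.20, edgeR adjusted p = 0.904), followed by the anion exchanger Slc4a2 at 23.5 to 58.3 FPKM (0.08) and Slc16a5 at 15.3 to 28.5 FPKM (0.12).

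Among 5 tested receptors for fatty acids and lactate, Ffar3 passed the threshold. Ffar3 encodes GPR41, the second receptor for short-chain fatty acids, and had 64, 42 and 50 counts in Nsd2fl/fl and 79, 94 and 126 counts in Nsd2ΔIE, without overlap. Its log2 fold change was 0.80 (SE 0.289, unadjusted p = 0.0290, adjusted p = 0.393, edgeR). Ffar4, the receptor GPR120 for long-chain fatty acids, had 7.80 to 28.7 FPKM (-0.45, edgeR adjusted p = 0.766) and Hcar1, the lactate receptor, 1.01 to 2.27 FPKM (0.43, edgeR adjusted p = 0.632).

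Of 10 epithelial transcription factors tested, 9 had log2 fold changes below 0 (median -0.25), as had 9202 of the 16347 genes tested. Of the 10, 1 passed the study's threshold in the lower direction. Gata6, a GATA factor of the gut epithelium, had 10.6 to 13.7 FPKM and 9.96 to 11.8 FPKM (-0.35, SE 0.134, edgeR adjusted p = 0.419), and was chosen after its values were seen. The most abundant were Cdx1 at 190.1 to 221 FPKM (-0.22), Hnf4a at 181 to 217 FPKM (-0.19) and Cdx2 at 36.4 to 131 FPKM (0.34). Cdx2 was high in the 3 libraries low in Hoxb13, at 122 to 131 FPKM. No gene of the partner, carrier, receptor and transcription factor lists had an edgeR adjusted p under 0.05. At an unadjusted p under 0.05 with edgeR there were 0 partners, 2 sugar carriers, 2 peptide and amino acid carriers, 3 monocarboxylate carriers, 1 receptor and 1 transcription factor, beside 1816 of the 16347 genes tested. In these lists DESeq2 adjusted p-values were read only for the 4 tested partners and the listed genes past the study's threshold. Among those, Slc2a3 and Slc2a4 were under 0.05 with DESeq2, beside 455 of all genes tested.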

How the data were processed

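Total RNA of whole colon was extracted with TRIzol for 3 Nsd2fl/fl and 3 Nsd2ΔIE samples. Groups and replicate numbers came from the labels. For each library the authors deposited read counts by gene symbol, in whole numbers, and FPKM values by gene symbol. The submitters' processing notes name fastp, HISAT2, HTSeq, R 3.2.0 and mm10, without roles; the annotation and the use of strand are not given in the sources used here. In 17863 genes read in all libraries, the deposited count and FPKM values implied a gene length within 0.0638 bases of a whole number. The tables held no row for unassigned reads, and 0 columns of per-sample values were left unused.

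The count model was edgeR 4.0.16 under R 4.3.3, with filterByExpr (16347 genes kept), TMM factors and a two-sided quasi-likelihood test of genotype alone. Benjamini-Hochberg adjustment ran over these 16347 genes. The SE of a log2 fold change is its size divided by the square root of F. The study's threshold asks for an unadjusted p under 0.05 and a log2 fold change beyond 0.322 in size. Levels between genes were compared in FPKM, and CPM was scaled by TMM factors. The fit was checked on simulated counts.

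The 10 genes and all lists were chosen with earlier results of these data known, and some list genes are not reported here and were left out of the list counts. Named genes are these 10, Nsd2, Xist, the partners, the 3 genes of highest mean FPKM in each other list, any listed gene with an adjusted p under 0.05, and the Hox genes; marker lists are given by their sums. Genes past the study's threshold, single marker genes, Acsm3, Slc1a1 and Slc36a1 fall outside this rule and were named after their values were seen. Alternatives were RLE, upper-quartile or no factors, DESeq2 1.42.0, limma-voom with quality weights (limma 3.58.1), no filter on low counts, limma on log2(FPKM + 1) and log2(FPKM + 0.1), leaving out each library, the replicate number as a block, Hox and epithelial covariates (mean log2 CPM, prior count 2), and a fold over 1.5. The labels call the samples of a group replicates and do not say that each is 1 animal. The p-values therefore measure the spread between these samples, which need not be the spread between animals. The depth of about the same total in all libraries gives 3 counts at most 0.0848 CPM. Loci came from GENCODE M21 (GRCm38, the build of mm10) and promoters from RefSeq (GRCm38.p6).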

Additional observations from a re-analysis of the deposited data

How the results depend on the processing

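Over 17 alternatives for each of the 9 tested genes, 148 of 153 log2 fold changes kept the direction of the edgeR fit and 5 turned. No gene of the 9 reached an adjusted p under 0.05 in any of the 17. At an unadjusted p under 0.05 they counted 1 with edgeR, beside 1816 of the 16347 genes tested, and 1 with DESeq2 and limma-voom. The highest count, 6, was under the replicate block. At that p the count over all genes was taken for the edgeR fit of all 6 libraries alone. The 6 genes under the block therefore have no share over all genes to be read against. The genes lower in Nsd2ΔIE by the study's threshold, 1 in the edgeR fit, were 0 with RLE factors, upper-quartile factors, library totals alone, log2(FPKM + 1), log2(FPKM + 0.1) and a fold over 1.5, 2 with the epithelial covariate, and 0 to 2 when each library was left out. The genes higher in Nsd2ΔIE, 0 in the edgeR fit, were 1 with the epithelial covariate and 0 to 1 when each library was left out. Over all genes tested, 403 were lower and 1094 higher with the epithelial covariate. When each library was left out, 146 to 747 of all genes were lower and 675 to 1720 higher. The counts of the 9 genes changed with the third Nsd2ΔIE library left out (0 lower), the second Nsd2fl/fl library (2 lower, Slc16a1 and Slc5a8, and 1 higher, Ffar2) and the first Nsd2ΔIE library (2 lower, Slc15a1 and Slc5a8). Without the second Nsd2ΔIE library the 1 gene was Slc7a9 (-1.07) in place of Slc2a1. The same 3 genes as without the second Nsd2fl/fl library passed with the epithelial covariate. The cause was not tested.

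Slc6a14 turned to 0.0096 with library totals alone and 0.048 with the epithelial covariate, and ranged from -0.28 to 0.14 when each library was left out. Slc15a1 ranged from -2.25 to 0.30 over the same 6 fits, Slc3a1 from -0.37 to 2.83 and Bsg from -0.20 to 0.048. Bsg turned to 0.036 under both FPKM settings, 0.031 when library totals alone set the scale and 0.087 with the epithelial covariate. Library totals alone moved the median of all genes from -0.04 to 0.09, and with it all genes past the study's threshold were 1717 higher and 142 lower, beside 1316 and 361 in the edgeR fit.

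The labels do not say whether the replicate numbers pair the samples. Correlations cannot decide it, since libraries can be alike without being paired. Deviations from the group means correlated at 0.501, 0.643 and -0.166 between same-numbered libraries, and the third Nsd2ΔIE library correlated best with the second Nsd2fl/fl library (0.290). With the replicate number as a block, 4 of the 9 genes were lower in Nsd2ΔIE by the study's threshold, beside 602 of the 16347 genes tested. Totals were alike in all libraries, so depth was not compared.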

Other observations

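The enzymes that colonocytes use to burn butyrate and make ketone bodies were read next to their carriers. Of 9 tested, 5 had log2 fold changes above 0 and 4 below, with a median of 0.0064, and none passed the study's threshold. Hadh, of fatty acid oxidation, had 135 to 218 FPKM (log2 fold change 0.10), and Acads, an early enzyme of butyrate oxidation, 58.8 to 121 FPKM (0.32). Oxct1, which activates ketone bodies for use as fuel, had 61.2 to 97.5 FPKM (-0.30, edgeR adjusted p = 0.639). In the 3 libraries high in Hoxb13, Oxct1 had 87.5 to 97.5 FPKM, compared with 61.2 to 67.1 FPKM in the others. Acads had the reverse order, with 58.8 to 81.8 FPKM compared with 90.5 to 121 FPKM. Acsm3, a butyrate-CoA ligase whose name was added after its values were seen, had 27.8 to 43.9 FPKM in the 3 libraries low in Hoxb13 and at least 90.6 FPKM in the other 3, and Slc15a1 was lower in the same 3 libraries.

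Other carriers shared that order, among them Slc1a1 and Slc36a1, also named after their values were seen. Slc26a3, named above, had 168 to 334 FPKM in the libraries high in Hoxb13 and 84.1 to 122 FPKM in the others. Slc4a2 and Slc16a5 had the reverse order. How many listed carriers followed either order was not counted. Slc1a1, the glutamate carrier EAAT3, had 15.8, 3.25 and 15.6 FPKM in Nsd2fl/fl and 11.7, 3.28 and 4.75 FPKM in Nsd2ΔIE. Slc36a1, the proton-coupled amino acid carrier PAT1, had 39.7, 8.31 and 19.7 FPKM in Nsd2fl/fl and 25.8, 8.72 and 9.28 FPKM in Nsd2ΔIE. The FPKM of the 2 butyrate carriers Slc16a1 and Slc5a8 summed to 139, 76.9 and 95.9 in the control libraries, and the Nsd2ΔIE sums of 104, 73.1 and 75.2 overlapped them.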
